A study of Mus musculus with 6 samples.

Results

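Cyclins, cyclin-dependent kinases and the machinery of mitosis were followed in whole skin of young mice, with and without added Hoxc13, a homeobox gene that acts in the hair follicle. The members were all probe sets whose gene symbol is a cyclin with a letter and a number, a numbered CDK, a CDK inhibitor of the INK4 or CIP/KIP kind other than Cdkn1c, or a named gene of DNA synthesis, chromosome segregation or the spindle. The rule used names alone and no measured value. It found 58 genes, read by 76 of the 12422 probe sets other than controls. Of these, 64 probe sets of 53 genes passed a filter that removed the dimmest 25% of all probe sets by their mean over the 6 arrays. The other 12 lay between 0.234 and 20.6 on every array, and Ccna1, Ccne2, Cdkn2a, Cenpe and Cenpx were measured by such dim probe sets alone. Ccnb1, Cdk6, Cdc25b, Bub1b and Aurkc had no member probe set and are not analysed here. The only probe sets naming Tyms, 2 in number, list a pseudogene beside it and were left out.

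Total RNA of whole skin was hybridised to 6 Affymetrix arrays, 1 for each sample. The 3 FVB samples came from mice of this albino inbred strain, and the 3 GC13 samples from a transgenic line that overexpresses Hoxc13. All were taken 5 days after birth, when the first hair coat grows. The labels give neither the promoter of the transgene nor the strain that carries it. They also leave unsaid whether each sample was a different mouse, and the spread behind the p-values may then be technical in part. A Y-linked gene, given below, sets GC13 replicate 2 apart from the other GC13 samples. Hoxc13 had no probe set in the annotation, and its overexpression was not checked.

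The cell cycle turns on kinases that are active only with a cyclin partner. D and E cyclins drive cells from G1 into S phase, A and B cyclins carry them through S phase and into mitosis, and the INK4 and CIP/KIP proteins hold the kinases back. Aurora and Polo-like kinases, the spindle checkpoint, centromere proteins and kinesins then part the chromosomes. In growing skin, dividing cells lie mainly in the hair matrix, the outer root sheath and the basal epidermis. A level in whole skin cannot tell fewer cells of a type from less RNA per cell.

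Total intensity per array ran from 1626361 to 1736141. The ratio of 3' to 5' signal of the Gapdh controls, a measure of messenger RNA loss from the 5' end, was 0.894 to 0.958 on the FVB arrays and 2.22, 9.58 and 2.19 on GC13 replicates 1, 2 and 3. The exact two-sided permutation test gave p = 0.1, the smallest that 3 against 3 arrays allow, and RNA quality and line cannot be told apart. GC13 replicate 2 also stood apart with a beta-actin ratio of 3.80 against 1.16 to 1.43 elsewhere. The Y-linked gene Eif2s3y was at 69.4 to 98.9 on the FVB arrays and at 3.25, 143 and 4.60 on the GC13 arrays, so the sex of the samples differs within GC13 and partly with the line. The part of either in the differences described here was not tested, and values without GC13 replicate 2 are given where they change a call. That array was the only GC13 array with high Eif2s3y. Without it, Eif2s3y is high on every FVB array and low on every GC13 array, so sex and line cannot be told apart in those values.

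No member passed in GC13 against FVB at a Benjamini-Hochberg adjusted p under 0.05 (limma, over 9316 probe sets), where 0.472% of all probe sets passed. At an unadjusted p under 0.05, 2 of the 64 member probe sets were higher and 9 lower, or 3.12% and 14.1%, beside 8.52% and 6.93% of all probe sets. After each array was centred on its median, 14 members (21.9%) were higher on every GC13 array than on any FVB array, beside 14.6% of all probe sets. By the same measure 11 (17.2%) were lower on every GC13 array, beside 9.91%. On the deposited scale without centring these counts were 11 (17.2%) and 9 (14.1%), beside 10.6% and 12.3% of all probe sets. Of the members apart after centring, 8 of the 14 and 9 of the 11 were apart on both scales. Over the 53 member genes, each taken by its probe set with the highest mean, the median log2 difference, GC13 minus FVB, was 0.03, with 28 genes above 0 and 25 below. The median over all 6867 genes was 0.07. Counted by these genes, 2 of 53 were higher and 6 lower at an unadjusted limma p under 0.05, beside 563 and 438 of 6867. After centring, 14 of the 53 lay above FVB on every GC13 array and 8 below, beside 1027 and 656 of 6867.

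**Figure D1:**
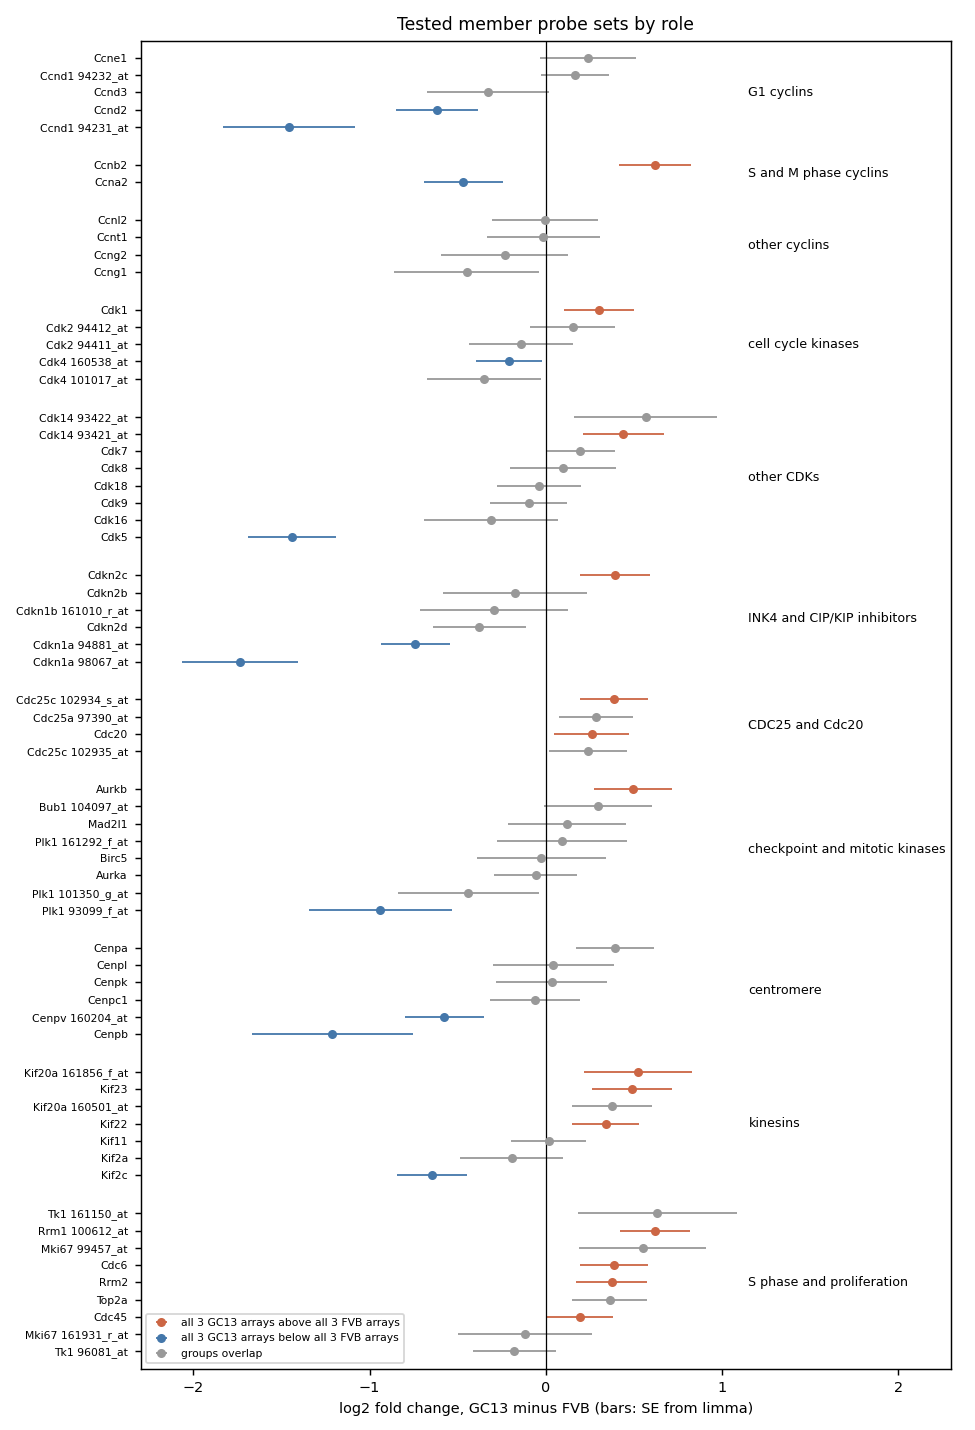
Log2 difference (horizontal axis, GC13 minus FVB) of the 64 tested member probe sets, grouped by role; points are limma estimates, bars their SE, and colours show whether the 3 arrays of each group were apart on the centred scale. Cdk5 and the dimmer probe sets of Cdkn1a and Ccnd1 lie farthest to the left, at -1.44, -1.74 and -1.46, and the highest point lies at 0.63.

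Among the members the differences of smallest p were on the low side, in Cdk5, Cdkn1a, 1 probe set of Ccnd1 and Kif2c, followed by Rrm1 and Ccnb2 on the high side. The member medians by array, relative to the FVB mean, were 0.19, 0.29 and -0.09 on GC13 replicates 1, 2 and 3, beside 0.06, 0.23 and -0.04 for all genes. The median of the members thus lay near that of all genes on each array, while single members stood 2-fold or more away from FVB.

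Cyclin D1, the main mitogen-induced partner of Cdk4 and Cdk6, differed between its pair of probe sets. The brighter one had intensities of 472, 511 and 459 in FVB skin and 578, 449 and 516 in GC13, and the groups overlapped (log2 difference 0.17, SE 0.20). The dimmer one had 122, 107 and 138 in FVB skin and 40.9, 20.3 and 80.2 in GC13. All GC13 arrays lay below all FVB arrays there, at a log2 difference of -1.46 (SE 0.37, limma adjusted p = 0.144). With that group reduced to replicates 1 and 3 it passed, at -1.08 (limma adjusted p = 0.045). Within each array, the log2 ratio of the dimmer over the brighter was -1.96 ± 0.26 (SD, n = 3) in FVB skin and -3.58 ± 0.86 (SD, n = 3) in GC13. Such ratios do not depend on array scaling, and the exact permutation test gave p = 0.1, or 0.167 after Benjamini-Hochberg adjustment over the 5 ratios computed among members. Which part of the transcript each probe set reads is not given in the sources used here. The dimmer probe set had its lowest signal, and Gapdh its highest 3' to 5' ratio, on GC13 replicate 2. Whether the 2 are linked was not tested.

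The other D and E cyclins had log2 differences of -0.62 to 0.24. Cyclin D2, which shares the partners of cyclin D1, had 36.1, 55.8 and 45.7 in FVB skin and 24.8, 22.2 and 36.8 in GC13. The deposited values overlapped between FVB replicate 1 and GC13 replicate 3, while the centred values did not, and the log2 difference was -0.62 (SE 0.23, limma adjusted p = 0.271). Cyclin D3 ran from 168 to 262 in FVB skin and from 88.7 to 280.3 in GC13, lowest on GC13 replicate 2. Cyclin E1, the partner of Cdk2 at S phase entry, ran from 57.0 to 102 and from 63.9 to 115, with wide overlap.

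Cyclins A2 and B2, which accompany cells through S phase and mitosis, lay on opposite sides of FVB in GC13. Ccna2 had 291, 276 and 355 in FVB skin and 182, 223 and 227 in GC13, so that every GC13 array lay below every FVB array (log2 difference -0.47, SE 0.23, limma adjusted p = 0.368). Ccnb2 had 370.1, 449 and 492 in FVB skin and 616, 527 and 788 in GC13, all above FVB (log2 difference 0.62, SE 0.20, limma adjusted p = 0.22). Within each array the log2 ratio of Ccna2 over Ccnb2 was -0.50 ± 0.18 (SD, n = 3) in FVB skin and -1.59 ± 0.31 (SD, n = 3) in GC13, with no overlap. The difference of -1.09 between the groups had p = 0.1 in the exact permutation test, or 0.167 adjusted over the 5 ratios. Ccna2 was already below FVB and Ccnb2 above FVB on every GC13 array. Their ratio therefore had to separate the groups, and its test adds no support. The ratio itself was -1.23 on GC13 replicate 2 and -1.75 and -1.79 on replicates 1 and 3. Both cyclins are commonly taken as marks of dividing cells.

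Cdk1, the kinase of both mitotic cyclins, had 233, 220.2 and 229.9 in FVB skin and 311, 231 and 266 in GC13. Its log2 difference was 0.30 (SE 0.20, limma adjusted p = 0.5), and the groups were apart on the centred scale and overlapped on the deposited one. Promoters of genes that peak in mitosis often carry CCAAT boxes, bound by NF-Y, and a cell cycle homology region (CHR), while promoters of S phase genes often carry E2F sites. The RefSeq promoter of GRCm38.p6, from 250 bases before to 50 after the transcript start, was found for 50 of the 58 member genes, and the first listed was read for each. Members of S phase and mitosis are shown, picked with log2 differences on both sides of 0, though none of them passed the threshold. They are Ccnb2 at chr9:70421505-70421804 (minus strand), Cdk1 at chr10:69352863-69353162 (minus strand), Rrm1 at chr7:102441445-102441744 (plus strand) and Kif2c at chr4:117178723-117179022 (minus strand). Capitals mark 3 motifs on either strand, so that a motif may stand as its reverse complement. The first was the CCAAT box. The CHR was searched as TTTGAA. The E2F core was searched as GCGGGAA.
Ccnb2: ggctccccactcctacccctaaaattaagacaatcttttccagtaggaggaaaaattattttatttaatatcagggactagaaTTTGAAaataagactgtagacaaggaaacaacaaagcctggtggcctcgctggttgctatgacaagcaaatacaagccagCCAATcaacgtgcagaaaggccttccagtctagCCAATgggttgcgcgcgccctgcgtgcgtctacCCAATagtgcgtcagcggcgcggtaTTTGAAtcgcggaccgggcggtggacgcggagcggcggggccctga
Cdk1: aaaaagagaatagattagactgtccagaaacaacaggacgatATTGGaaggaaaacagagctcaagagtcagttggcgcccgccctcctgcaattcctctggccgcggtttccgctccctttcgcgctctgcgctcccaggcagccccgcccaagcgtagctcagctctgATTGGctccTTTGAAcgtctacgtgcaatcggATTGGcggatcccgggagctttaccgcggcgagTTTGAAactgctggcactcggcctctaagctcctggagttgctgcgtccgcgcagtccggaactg
Rrm1: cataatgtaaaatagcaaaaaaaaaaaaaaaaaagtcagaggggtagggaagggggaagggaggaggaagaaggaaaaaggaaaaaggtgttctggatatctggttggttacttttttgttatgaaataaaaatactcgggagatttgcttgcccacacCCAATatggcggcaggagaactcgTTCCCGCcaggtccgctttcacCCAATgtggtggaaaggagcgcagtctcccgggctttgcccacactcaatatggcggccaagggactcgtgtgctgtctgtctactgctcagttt
Kif2c: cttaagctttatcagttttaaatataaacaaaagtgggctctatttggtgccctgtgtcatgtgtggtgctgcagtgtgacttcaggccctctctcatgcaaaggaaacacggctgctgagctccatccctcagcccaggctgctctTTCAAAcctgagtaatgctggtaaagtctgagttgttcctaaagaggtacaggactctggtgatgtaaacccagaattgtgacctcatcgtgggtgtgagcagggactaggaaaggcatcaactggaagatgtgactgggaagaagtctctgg
The Ccnb2 promoter held CCAAT boxes starting 87, 54 and 21 bases before the start and CHR matches starting 167 bases before it and at base 5 after it. The Cdk1 promoter held inverted CCAAT boxes 208, 80 and 48 bases before the start and CHR matches at 71 and 15 bases before it. Rrm1 had CCAAT boxes at 91 and 45 bases before the start with the E2F core at 67 bases between them and no CHR, and Kif2c had 1 inverted CHR at 103 bases. Among the 50 member promoters 30 held a CCAAT box, 16 the CHR and 9 (18.0%) the E2F core, beside 37.9%, 18.1% and 4.66% of the 27025 genes with a promoter in the table. No matches of different motifs overlapped in the member promoters. These matches describe sequence and not binding. The CHR occurred in Ccnb2 and Cdk1 and also in Kif2c.

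Cdk5 had the smallest p of all members. It is an unusual CDK that is activated by p35 proteins in place of cyclins and is best known from neurons. Its intensities were 106, 95.8 and 109 in FVB skin and 40.4, 21.7 and 48.3 in GC13, so that every GC13 array lay far below every FVB array. The log2 difference of -1.44 (SE 0.25), or 2.71-fold lower, had a limma adjusted p of 0.0643 and missed the threshold. Without GC13 replicate 2, the lowest array, it was -1.21 with a limma adjusted p of 0.0104, in a comparison where 14.8% of all probe sets passed. The remaining CDKs outside the core cycle, which serve transcription or other tasks, had log2 differences of -0.31 to 0.57. Cdk16 had 278, 242 and 258 in FVB skin and 290.3, 90.5 and 293 in GC13, so its mean was lowered by GC13 replicate 2 alone. Cdk14, which pairs with cyclin Y, had 35.5, 38.2 and 26.6 in FVB skin and 49.9, 39.0 and 41.3 in GC13, apart on both scales (log2 difference 0.44, SE 0.23). Cdk7 and Cdk9, kinases of the RNA polymerase II tail, had log2 differences of 0.19 and -0.10.

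The G1 kinase Cdk4 had 608, 575 and 654 in FVB skin and 541, 427 and 549.7 in GC13 on its brighter probe set. All GC13 arrays lay below FVB, though by little (log2 difference -0.21, SE 0.19), and its dimmer probe set had -0.35 with overlap. Cdk2, the partner of E and A cyclins, had 0.15 and -0.14 on its probe sets, both with overlap.

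Cdkn1a encodes p21, the CIP/KIP inhibitor that p53 induces and that accompanies cell cycle exit of keratinocytes. It was lower in GC13 on both of its probe sets. The brighter had 299, 286 and 355 in FVB skin and 179, 161 and 191 in GC13, with a log2 difference of -0.74 (SE 0.20, limma adjusted p = 0.151). The dimmer had 100.1, 108 and 136 in FVB skin and 47.9, 15.8 and 38.4 in GC13, with -1.74 (SE 0.33, limma adjusted p = 0.0797). On both, all GC13 arrays lay below all FVB arrays by a wide margin. Without GC13 replicate 2 both passed, with log2 differences of -0.77 (limma adjusted p = 0.0305) and -1.39 (limma adjusted p = 0.0133). The dimmer probe set had the larger difference. The log2 ratio of the dimmer over the brighter within an array was -1.44 ± 0.10 (SD, n = 3) in FVB skin and -2.44 ± 0.68 (SD, n = 3) in GC13. The exact permutation test gave p = 0.1 (adjusted 0.167), the smallest that 3 against 3 arrays allow before adjustment.

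Of the 5 tested inhibitor genes, 4 lay below 0 and 1 above, and whether the others differ from Cdkn1a was not tested. Cdkn2c, an INK4 protein that binds Cdk4 and Cdk6, was higher on every GC13 array, with 204, 205 and 221 in FVB skin and 297, 243 and 250.1 in GC13 (log2 difference 0.39, SE 0.20, limma adjusted p = 0.392). Cdkn2b, its relative downstream of TGF-beta, had 29.6, 28.1 and 32.6 in FVB skin and 14.7, 44.5 and 23.2 in GC13, below FVB on replicates 1 and 3 and above it on replicate 2. Cdkn1b, which encodes p27, was dim, with 4.79 to 13.1 in GC13 and 7.45 to 14.9 in FVB on its tested probe set. Cdkn2d had a log2 difference of -0.38 with overlap. Cdkn2a, which encodes p16 and p19Arf, lay between 1.04 and 6.22 in FVB skin and between 1.24 and 20.6 in GC13 and was too dim to be tested.

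**Figure D2:**
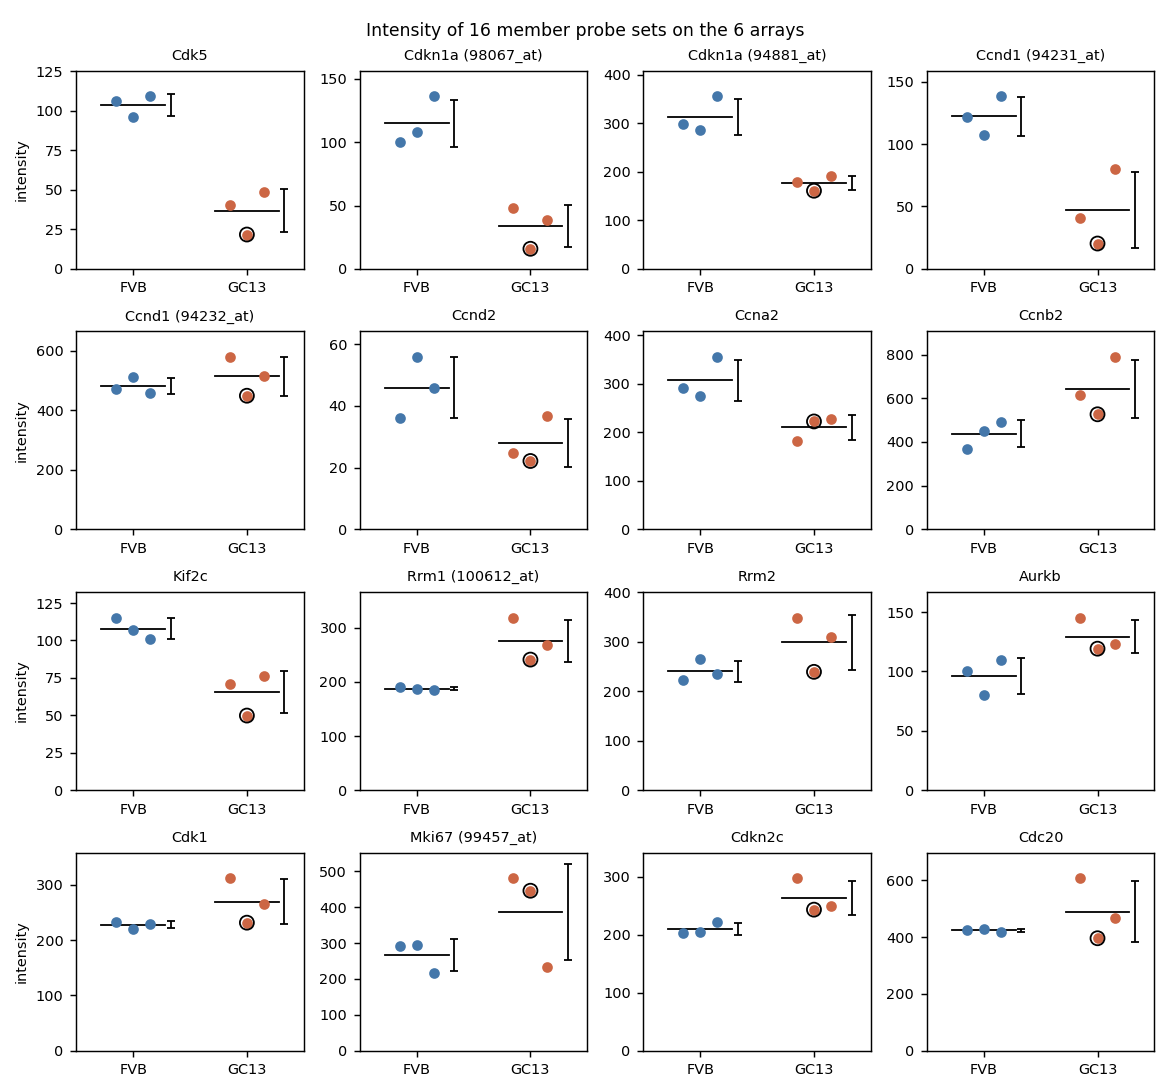
Deposited intensity (vertical axis, linear from 0) of 16 member probe sets in the 3 FVB and 3 GC13 samples; points are arrays, horizontal lines group means, bars 1 SD, and circled points GC13 replicate 2. Cdk5 stands at 95.8 to 109 in FVB skin and at 21.7 to 48.3 in GC13, while Ccnd1 is lower in GC13 on its dimmer probe set and overlaps on its brighter one.

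The phosphatases that switch on the kinases, and Cdc20, which opens mitotic exit through the anaphase-promoting complex, all had log2 differences above 0. Cdc20 had 424, 428 and 418 in FVB skin and 606, 396 and 467 in GC13. Its deposited values thus overlapped on GC13 replicate 2, and its log2 difference was 0.26 (SE 0.21). Cdc25a and Cdc25c had 0.29 and, on a pair of probe sets, 0.39 and 0.24. None of these 4 tested probe sets passed, and the smallest limma adjusted p among them was 0.385.

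Spindle checkpoint and mitotic kinase genes went both ways, with 3 of 6 genes above 0. Aurkb, the kinase of the chromosomal passenger complex, had 100.04, 79.8 and 109.5 in FVB skin and 145, 119 and 123 in GC13, all above FVB on both scales (log2 difference 0.49, SE 0.22, limma adjusted p = 0.337). Birc5, which encodes survivin of the same complex, had 101, 111 and 122 in FVB skin and 133, 134 and 62.1 in GC13. Aurka, the spindle pole kinase, ran from 58.5 to 63.6 and from 48.2 to 61.1. Bub1 and Mad2l1 of the checkpoint were highest on GC13 replicate 2, at 103 and 345, and lowest on replicate 3, at 56.4 and 174. The probe sets of Plk1, the Polo-like kinase of mitotic entry, disagreed. Its brightest had 141, 141 and 136 in FVB skin and 161, 42.1 and 132 in GC13, another had 67.7, 83.1 and 95.7 in FVB skin and 51.6, 16.4 and 69.5 in GC13, and the third had 72.2, 62.4 and 92.5 in FVB skin and 45.3, 109 and 87.4 in GC13. On GC13 replicate 2 the first pair gave the lowest values of all arrays and the third probe set the highest.

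Centromere genes, whose proteins build the kinetochore, had a median log2 difference of -0.01 over 6 genes. Cenpb, which binds centromeric satellite DNA, had 38.6, 30.7 and 48.7 in FVB skin and 29.3, 5.06 and 19.0 in GC13 (log2 difference -1.21, SE 0.46, limma adjusted p = 0.27). All GC13 arrays lay below FVB, but without GC13 replicate 2 the log2 difference was -0.69. Cenpv had 20.1, 22.5 and 24.3 in FVB skin and 14.0, 14.7 and 11.9 in GC13 on its tested probe set (log2 difference -0.58, SE 0.23, limma adjusted p = 0.286). Without GC13 replicate 2 it passed at -0.73 (limma adjusted p = 0.0378). Cenpa, the centromeric histone, had 63.6 to 74.8 in FVB skin and 73.1, 81.5 and 113 in GC13, with overlap.

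Among the kinesins, Kif2c, a microtubule-depolymerising motor that frees wrongly attached chromosomes, had the lowest log2 difference. It had 115, 107 and 101 in FVB skin and 70.8, 49.8 and 76.4 in GC13, all below FVB (log2 difference -0.64, SE 0.20, limma adjusted p = 0.203). Kif23, a motor of the central spindle in cytokinesis, had 134, 106 and 126 in FVB skin and 184, 159 and 147 in GC13, all above FVB (log2 difference 0.49, SE 0.23). Kif20a, another cytokinesis motor, had 0.52 and 0.38 on its probe sets, and Kif22 0.34. Kif11, the motor that pushes the spindle poles apart, had 0.02, with 48.1 to 62.2 in FVB skin and 48.0 to 56.1 in GC13. Kif2a had 96.7, 98.0 and 95.6 in FVB skin and 67.9, 109 and 69.2 in GC13, below FVB on replicates 1 and 3 and above it on replicate 2 (log2 difference -0.19).

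Among genes of DNA synthesis and general marks of proliferation none passed the threshold, and 6 of 7 lay above 0, beside 3911 of 6867 over all genes. Rrm1, the large subunit of ribonucleotide reductase, had 191, 187 and 185 in FVB skin and 319, 241 and 268 in GC13. Every GC13 array lay above every FVB array, with a log2 difference of 0.62 (SE 0.20, limma adjusted p = 0.213). Its partner subunit Rrm2 had 222, 264 and 234 in FVB skin and 348, 239 and 310.2 in GC13 (log2 difference 0.37, SE 0.20), apart only after centring. Cdc6, which loads the replicative helicase, had 58.9, 56.5 and 60.4 in FVB skin and 72.9, 70.9 and 76.1 in GC13, apart on both scales (log2 difference 0.39, SE 0.19, limma adjusted p = 0.381). Mki67, the gene of the Ki-67 antigen used to count dividing cells, had 290.4, 294 and 215 in FVB skin and 479.9, 446 and 232 in GC13, with GC13 replicate 3 inside the FVB range. Its dim probe set had a log2 difference of -0.12 with overlap. Top2a, which untangles DNA before mitosis, had 198, 197 and 169 in FVB skin and 256, 221 and 213 in GC13, apart on the deposited scale and not after centring. Tk1, the salvage enzyme of thymidine, had 187, 185 and 189.6 in FVB skin and 172, 103 and 218 in GC13 on its brighter probe set (log2 difference -0.18). Its other probe set, with intensities of 2.36 to 14.4 over all arrays, had the highest log2 difference of the members, 0.63 (SE 0.45), with overlap.

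**Figure D3:**
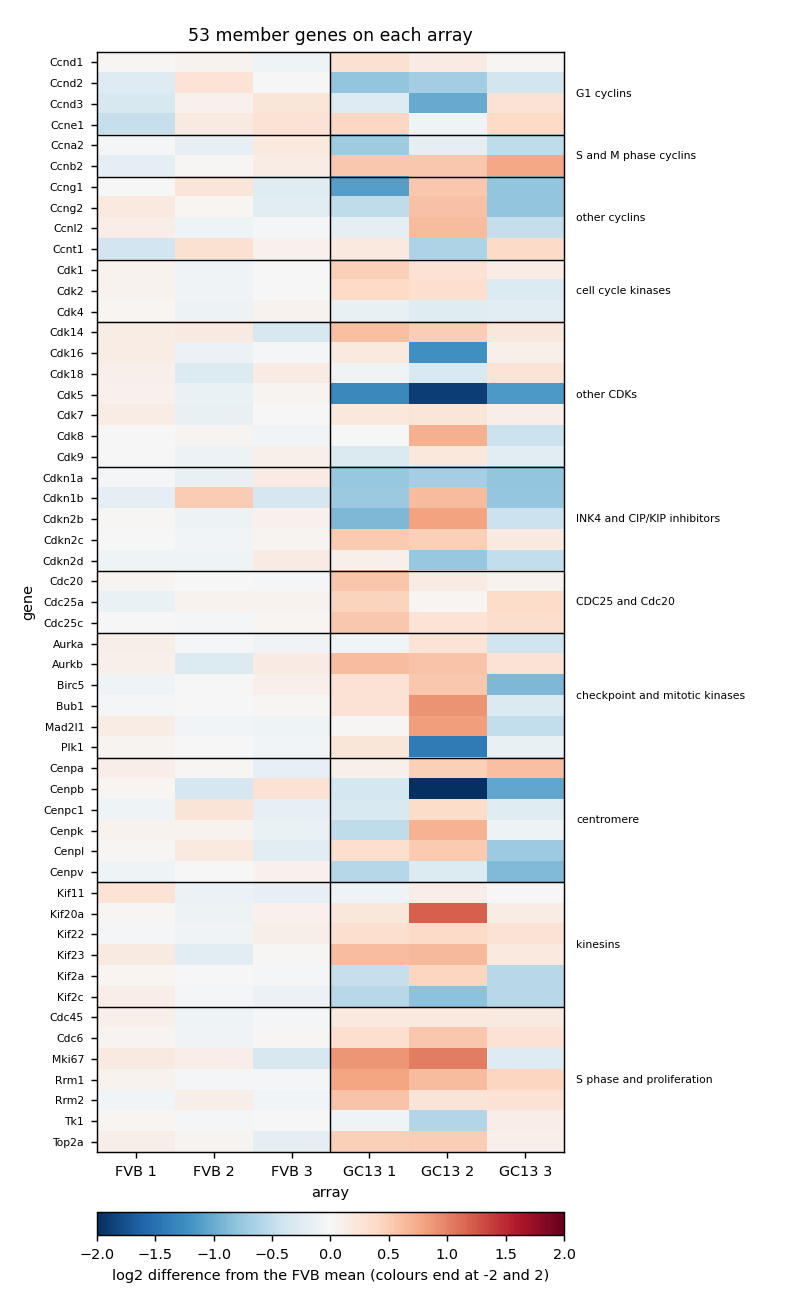
Log2 difference from the FVB mean (colour, centred scale) of the 53 tested member genes (rows, by role) on each of the 6 arrays (columns); red is higher and blue lower. Cdk5 and Cdkn1a are blue on all 3 GC13 arrays, Rrm1 and Ccnb2 are red on all 3, and Ccng1, Cdkn2b and Cdkn1b change colour between GC13 replicate 2 and the other GC13 arrays.

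The 4 other cyclins, G1, G2, L2 and T1, which act in growth arrest or transcription, had log2 differences of -0.45 to -0.01 with overlapping groups. Ccng1, a p53 target, had 88.1, 109 and 77.7 in FVB skin and 40.4, 110.0 and 54.6 in GC13, low on replicates 1 and 3 and at the top of the FVB range on replicate 2. Without that array it passed, with a log2 difference of -0.94. Ccng2, linked to cell cycle exit, had 211, 198 and 165 in FVB skin and 130.2, 238 and 116 in GC13, also below FVB on replicates 1 and 3 and above it on replicate 2.

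GC13 replicate 2 differed from the other GC13 arrays in many members. It held the lowest of the 6 values in 17 of 64 member probe sets (26.6%) and the highest in 26 (40.6%), beside 20.7% and 38.5% over all probe sets. In 27 members (42.2%) it lay on the other side of the FVB mean from the average of replicates 1 and 3, beside 47.0% of all probe sets. These shares lie near those of all genes. Without this array 6 member probe sets passed (9.38%, beside 14.8% of all), all lower in GC13: both of Cdkn1a and 1 each of Cdk5, Ccnd1, Ccng1 and Cenpv. The counts with the groups apart were then 16 higher and 19 lower, beside 27.1% and 26.5% of all probe sets. In this comparison sex, read from Eif2s3y, and line cannot be told apart.

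**Figure D4:**
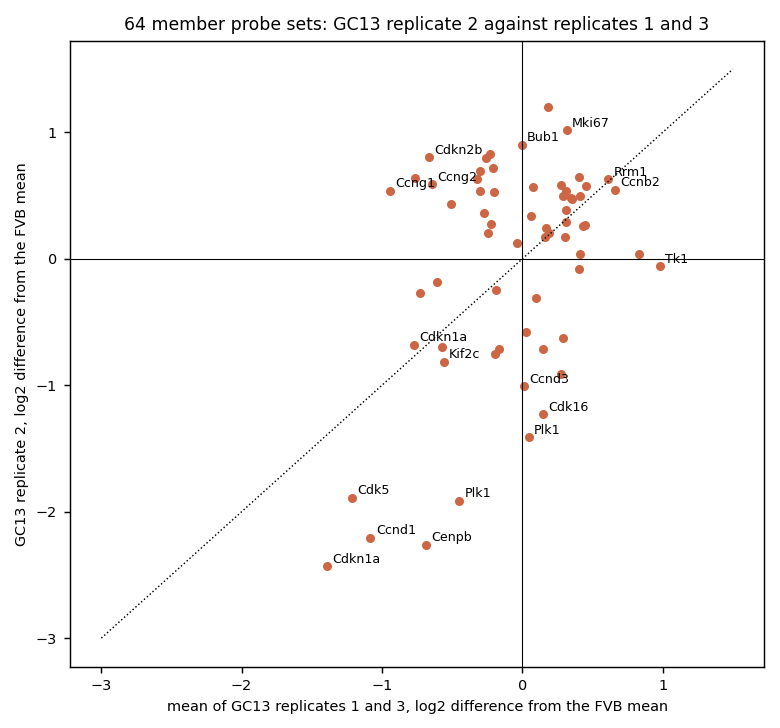
Log2 difference from the FVB mean of the 64 member probe sets on GC13 replicate 2 (vertical axis) against the mean of GC13 replicates 1 and 3 (horizontal axis); the dotted line marks equal values. Cdk5, both probe sets of Cdkn1a and the dimmer one of Ccnd1 lie low on both axes, Rrm1 and Ccnb2 high on both, and 27 of 64 points lie in the quadrants where the signs differ.

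Cell cycle genes outside the member rule were read from a list of 79 regulators, of which 60 had a probe set and 58 were tested. None passed, while 43 of 58 genes lay above 0 with a median log2 difference of 0.19, beside 0.07 for all genes. That median was 0.12, 0.53 and -0.04 on GC13 replicates 1, 2 and 3. The 4 of smallest p were Pttg1, the securin gene, E2f8, Anapc1 and Cks1b, a small subunit of CDK complexes. Pttg1 had 141, 134 and 158 in FVB skin and 311, 179 and 272 in GC13 (log2 difference 0.85, SE 0.22, limma adjusted p = 0.151). Cks1b had 262, 250.1 and 298 in FVB skin and 398, 331 and 389 in GC13 (log2 difference 0.53, SE 0.19, limma adjusted p = 0.253). E2f8 and Anapc1 had 0.75 and 0.68 on their dimmer probe sets. Their brighter probe sets had -0.24 and 0.05, with overlapping groups.

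Markers of skin cell types also differed in level between the groups, though no listed marker passed the test. The summed intensity of 7 hair matrix and shaft genes was 5515 to 5981 in FVB skin and 3964 to 4772 in GC13, with 6 of 7 below 0. That of 5 fibroblast genes was 7057 to 7725 in FVB skin and 8925 to 10404 in GC13, with all 5 above 0. Endothelial genes had 453 to 573 and 736 to 991, and suprabasal keratinocyte genes 5392 to 5601 and 5838 to 10276, with 4 of 5 above 0 in each list. Mast cell genes had 766 to 808 and 1005 to 1308, with 2 of 3 tested above 0. Melanocyte genes had 922 to 991 and 482 to 774, with 4 of 4 below 0, and skeletal muscle genes 2204 to 2353 and 2422 to 2803, with 5 of 6 above 0. The sums of adipocyte, erythroid and macrophage and leukocyte genes overlapped between the groups. Basal keratinocyte genes had 409 to 479 and 465 to 642, with both tested members above 0. Krt5, Krt14 and Krt15 of that list lay between 0.676 and 14.2 on every array and were too dim to be tested. The basal sum was thus mostly Col17a1 and Itga6. Bright genes also weighed most in other sums. Acta1, at 1684 to 2081 over all arrays, made up most of the skeletal muscle sum, with a log2 difference of 0.21 (SE 0.19). Krt31 and Krt35 made up most of the hair sum, and for each the groups overlapped after centring. The summed intensity of the member genes was 8080 to 8385 in FVB skin and 8049 to 8987 in GC13, with overlap. No marker of these lists was at 0, and the part of cell composition in the members' differences was not tested.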

How the data were processed

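Total RNA of whole mouse skin was measured on 6 single-sample Affymetrix arrays, 3 FVB and 3 GC13. The deposited values are intensities on a linear scale. From the values, the authors had scaled each array so that its mean without the highest and lowest 2% was 100.1. Neither software nor background correction is given in the sources used here, and signal over background is unknown, while the number of arrays limits the precision. Gene names came from the platform annotation, updated through Entrez identifiers with the RefSeq table of GRCm38.p6, which held all 76 member probe sets. Probe sets listing several genes (396) or none (1193) stayed unnamed.

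Values were set to log2(intensity + 2), which understates the change of dim probe sets. Medians of the arrays differed by up to 0.345 and were made equal. The dimmest 25% of probe sets were left out. The groups were tested two-sided with lmFit and eBayes of limma 3.58.1 (R 4.3.3), adjusted by Benjamini-Hochberg over 9316 probe sets at a threshold of 0.05. A log2 difference is GC13 minus FVB on this scale, and intensities are the deposited ones. Probe sets whose identifiers carry _f, _g, _r or _s before _at can take up signal from related sequences.

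Statistics are given for the 10 member probe sets of smallest p, for genes listed by name and, among other cell cycle genes, for the 4 of smallest p. Further members were described after their values were seen. The members and lists were chosen with earlier results of these data known. The fit was tested on simulated data for this comparison. When 200 of 9316 probe sets had a log2 change of 2, 96.9% were recovered, and with a change of 1, 1.2%. Of the calls, 5.62% and 13.0% were false. Each simulated probe set had the same normal spread on all 6 arrays. The measured arrays were less alike, with array weights from 0.107 to 4.12 in GC13, so the recovery in these data is unknown.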

Additional observations from a re-analysis of the deposited data

How the results depend on the processing

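The 10 member probe sets with full statistics kept their direction under each alternative in which they were tested, in up to 14 alternatives each. No member passed in the comparison as reported (0 at an adjusted p under 0.05; 11 at an unadjusted p under 0.05). The count of members past the threshold was 2 and 3 with pseudocounts of 16 and 32 and 1 with an intensity trend in eBayes. With array weights it was 32, where 41.3% of all probe sets passed. GC13 replicates 1, 2 and 3 then had weights of 4.12, 0.107 and 0.329, so the GC13 level rested mainly on replicate 1. The count ran from 0 to 6 when 1 array was left out, with 6 only without GC13 replicate 2. With the replicate number as a block 2 members passed, Cdk5 and 1 probe set of Cdkn1a, beside 78 of all probe sets. The numbers share no stated pairing, and same-numbered samples had correlations of -0.07, 0.18 and 0.36 in their deviations from the group means; not every pair was over 0.1, so the numbers were not taken as pairs.

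Over all probe sets 44 passed as reported, 83 and 119 with pseudocounts of 16 and 32, 23 with the dimmest 50% left out, 28 without centring and 3850 with array weights. They ran from 0 to 1379 when 1 array was left out. Without centring the median of the member genes was -0.0398 against 0.0336, while the median of all genes was -0.0028 against 0.0706, so the members' distance from it did not change. Leaving out 1 array moved the members' median between 0.02 and 0.20. The members higher on every GC13 array ran between 15 and 24 of 64, and those lower between 11 and 19. Over all probe sets the share higher also rose, from 14.6% with all arrays to between 17% and 27.1%. The share lower rose from 9.91% to between 11% and 26.5%. The other cell cycle genes past the threshold ran from 0 to 9 when 1 array was left out and were 29 with array weights. Only 3 arrays a group were measured, and dim probe sets have an unknown distance from background.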

Other observations

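Other genes that p53 is known to induce were set beside Cdkn1a after its values were seen. Mdm2, the ubiquitin ligase that restrains p53, had intensities of 101, 98.6 and 105 in FVB skin and 86.1, 147 and 79.5 in GC13, and Gadd45a had 92.4, 123 and 118 in FVB skin and 76.5, 95.8 and 98.7 in GC13. Their log2 differences were 0.05 (SE 0.32) and -0.22 (SE 0.23), with overlapping groups, beside -0.74 and -1.74 for Cdkn1a. Ccng1, another such gene, had -0.45 with overlap and passed at -0.94 without GC13 replicate 2, where 14.8% of all probe sets passed. Mdm2 was likewise below FVB on replicates 1 and 3 and above it on replicate 2. Whether p53 has a part in these values was not tested.

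Foxm1, a transcription factor of mitotic genes, had 24.9, 26.3 and 38.5 in FVB skin and 25.1, 2.82 and 10.4 in GC13 on its dim probe set, and 141, 157 and 174 in FVB skin and 189, 81.7 and 248 in GC13 on its brighter one. The log2 differences were -1.34 and 0.07, both lowest on GC13 replicate 2.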
